A study of Homo sapiens with 12 samples.

Results

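The genes described here are 31 members of the mevalonate pathway, taken by gene symbol from the 58735 genes measured in HepaRG cells, a human hepatic cell line that is labelled wild type. They form a shared trunk of 7 genes, a sterol branch of 12 and an isoprenoid branch of 12; other enzymes of the pathway are not analysed here. RNA was measured in 12 libraries, 3 in each of 4 groups. In PA+BMS, cells were given BMS-309403, which blocks FABP4, a carrier of fatty acids inside cells, at 50 µM for 24 h, with 400 µM palmitate during 4 h. PA+OA cells had 400 µM palmitate and 200 µM oleate for 4 h, which is 600 µM of fatty acid in all. PA cells had 400 µM palmitate alone for 4 h, stated to be deuterium-labelled for this group, and control cells were left untreated for 4 h. No group had oleate or BMS-309403 without palmitate, so each is compared here only on top of it, and no vehicle is stated for the control.

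The mevalonate pathway joins acetyl-CoA units into mevalonate and converts this into the isoprenoid building blocks isopentenyl and dimethylallyl diphosphate and then into farnesyl diphosphate, the point where the branches part. The sterol branch joins farnesyl units into squalene, closes the ring to give lanosterol and trims lanosterol to cholesterol. The isoprenoid branch lengthens the chain for geranylgeranyl groups, dolichol and the tail of ubiquinone, and attaches farnesyl and geranylgeranyl anchors to small GTPases. The liver is a main site of cholesterol synthesis, and many trunk and sterol genes are induced by the transcription factor SREBP-2 when membrane sterol is low. NF-Y, which binds CCAAT boxes, is a common partner of SREBP at such promoters.

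Levels are FPKM, fragments scaled to gene length and to a size per library, and a change is the difference of mean log2(FPKM + 1) between groups, which understates the change of low genes. A gene is said to have risen or fallen where limma gave a Benjamini-Hochberg adjusted p below 0.05 over the 11856 genes tested, those with 1 FPKM or more in 3 or more libraries. Of the 31 members 30 were tested; PGGT1B, with 0.485 to 1.67 FPKM, was not. Between 16059128 and 19971190 reads were counted per library, and among tested members the smallest count was 62 reads, for CYP51A1 in a PA+OA library. FPKM as deposited did not use this read total as its denominator: the size it used was 1.09 to 1.14 times the total in PA+BMS, 0.827 to 1.03 in PA+OA, 0.888 to 0.976 in PA and 1.03 to 1.097 in control, by a step not given in the sources used here. Levels and changes therefore carry a scaling that differs between groups, so counts are also given with library totals, here the sums of FPKM, set equal; median-of-ratios scaling lost 0 of the 71 member calls. The labels do not call replicates separate cultures, so p-values measure a spread that may be technical. Of 10 hepatocyte markers 0 reached 1 FPKM in any library, and ALB and FABP1 had 0 reads in all 12. Of 4 bile duct or progenitor markers 1 did, KRT7, and the list summed to between 140 and 185 FPKM in PA+BMS, 520 and 917 in PA+OA, 571 and 669 in PA, and 477 and 564 in control. Stellate markers reached 1 FPKM in 3 of 4 genes and summed to between 12.1 and 13.02 FPKM in PA+BMS, against 14.5 to 17.6 in the other groups. Leukocyte markers, of which 1 of 4 reached 1 FPKM and CD3E had 0 reads, summed to at most 0.607 FPKM in PA+BMS, against 1.51 to 2.20 in the other groups. Endothelial markers, of which 1 of 3 reached 1 FPKM, summed to at most 0.459 FPKM in PA+BMS and 0.454 in PA+OA, against 1.06 to 1.82 in PA and control. The bile duct or progenitor, stellate and leukocyte sums were thus lower in PA+BMS than in the other groups. The endothelial sum was low in both PA+BMS and PA+OA. The leukocyte gene that reached 1 FPKM was CSF1R and the endothelial one CDH5. Over all 12 libraries PTPRC and CD68 had 5 and 10 reads, and KRT19 and EPCAM 8 and 16. The leukocyte and the bile duct or progenitor sums thus rest almost wholly on CSF1R and KRT7. The part of these lists in the results was not tested. In RNA from whole cultures, fewer cells with such a transcript and less of it per cell cannot be told apart. On the first principal component, with 54.4% of the variance, PA+BMS replicate 3 lay at -51.5 and PA+OA replicate 1 at 54.6, each away from the rest of its group. These are the libraries called apart below. Changes also followed the GC content and length of transcripts: together these accounted for 58.3% of the variance of log2 changes over tested genes in PA+BMS against PA, 45.8% in PA+BMS against PA+OA and 45.6% in PA against control. A second set of counts for the members, after removing from every library its trend with GC and length, stands beside each comparison; it was not made for the neighbouring genes at the end. Any part of library composition in a result was not tested beyond that. Counts with 1 library left out are given below without a share of all genes, which was not computed for them.

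Promoters of the members were read for the CCAAT box in RefSeq windows of 250 bases before to 50 bases after each transcript start on GRCh38.p14, which 27 of 31 members matched. The letters searched were CCAAT and its reverse complement ATTGG, a run of CCAATTGG counting as both, and where a gene had several windows the one with most boxes was used. At least 1 box was present in 5 of 6 trunk promoters, 8 of 10 sterol promoters and 5 of 11 isoprenoid promoters, against 39.7% of 27305 RefSeq genes and 43.3% of the 8375 tested genes with a window. At least 2 boxes were present in 5 of 6 trunk, 5 of 10 sterol and 1 of 11 isoprenoid promoters, against 12.9% of all RefSeq genes. Of the tested genes with a window, 16.3% held at least 2. IDI1, FDPS, MVD and MVK in the trunk and EBP, MSMO1 and NSDHL in the sterol branch held 3 or more. So did 3.92% of all RefSeq genes and 5.91% of the tested genes with a window. PMVK in the trunk, CYP51A1 and LBR in the sterol branch and 6 isoprenoid genes held none, which says only that these letters are absent from these windows. Box counts describe letters and are not binding data. The RefSeq stretches printed here are from members that the results turn on. Each lies upstream of the annotated exons and runs 5′ to 3′ on the strand of the gene, with boxes in capitals. IDI1 and HMGCS1 have several starts, and the stretch of IDI1 comes from a window with 2 boxes, not from the window with 3 that was counted, which is not shown. Stretches stop at the first annotated exon, so some counted boxes are cut off. These are the HMGCS1 box at -98 and the MSMO1 box at -32 from the transcript start. Printed first are MSMO1 (chr4:165327419-165327622, + strand), IDI1 (chr10:1049171-1049369, - strand) and HMGCS1 (chr5:43313513-43313662, - strand), which rose with BMS-309403, then LBR (chr1:225428926-225429071, - strand), which also rose but has no box, and ICMT (chr1:6235973-6236214, - strand), an isoprenoid gene without one that fell as deposited. EBP, FDPS and NSDHL, which hold 3 or more boxes, also fell in PA+BMS against PA as deposited and are not printed. Any relation of boxes to direction was not tested.
MSMO1: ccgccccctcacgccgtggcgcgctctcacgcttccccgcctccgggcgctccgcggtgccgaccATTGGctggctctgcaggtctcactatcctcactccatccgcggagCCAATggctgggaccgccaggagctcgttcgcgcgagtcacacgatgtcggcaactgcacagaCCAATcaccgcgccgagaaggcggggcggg
IDI1: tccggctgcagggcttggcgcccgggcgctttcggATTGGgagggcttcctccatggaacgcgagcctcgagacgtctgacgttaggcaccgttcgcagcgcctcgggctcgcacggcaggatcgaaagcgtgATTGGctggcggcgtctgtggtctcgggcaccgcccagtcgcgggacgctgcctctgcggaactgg
HMGCS1: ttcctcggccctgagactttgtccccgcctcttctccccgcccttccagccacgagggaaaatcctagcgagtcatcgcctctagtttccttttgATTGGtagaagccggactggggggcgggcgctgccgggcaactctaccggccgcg
LBR: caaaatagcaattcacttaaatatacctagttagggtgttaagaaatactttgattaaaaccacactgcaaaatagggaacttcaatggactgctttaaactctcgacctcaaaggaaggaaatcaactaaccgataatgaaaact
ICMT: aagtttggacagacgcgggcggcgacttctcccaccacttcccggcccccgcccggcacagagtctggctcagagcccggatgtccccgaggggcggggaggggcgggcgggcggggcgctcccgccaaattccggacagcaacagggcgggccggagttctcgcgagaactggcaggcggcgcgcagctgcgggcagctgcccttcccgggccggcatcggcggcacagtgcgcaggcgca

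**Figure D1:**
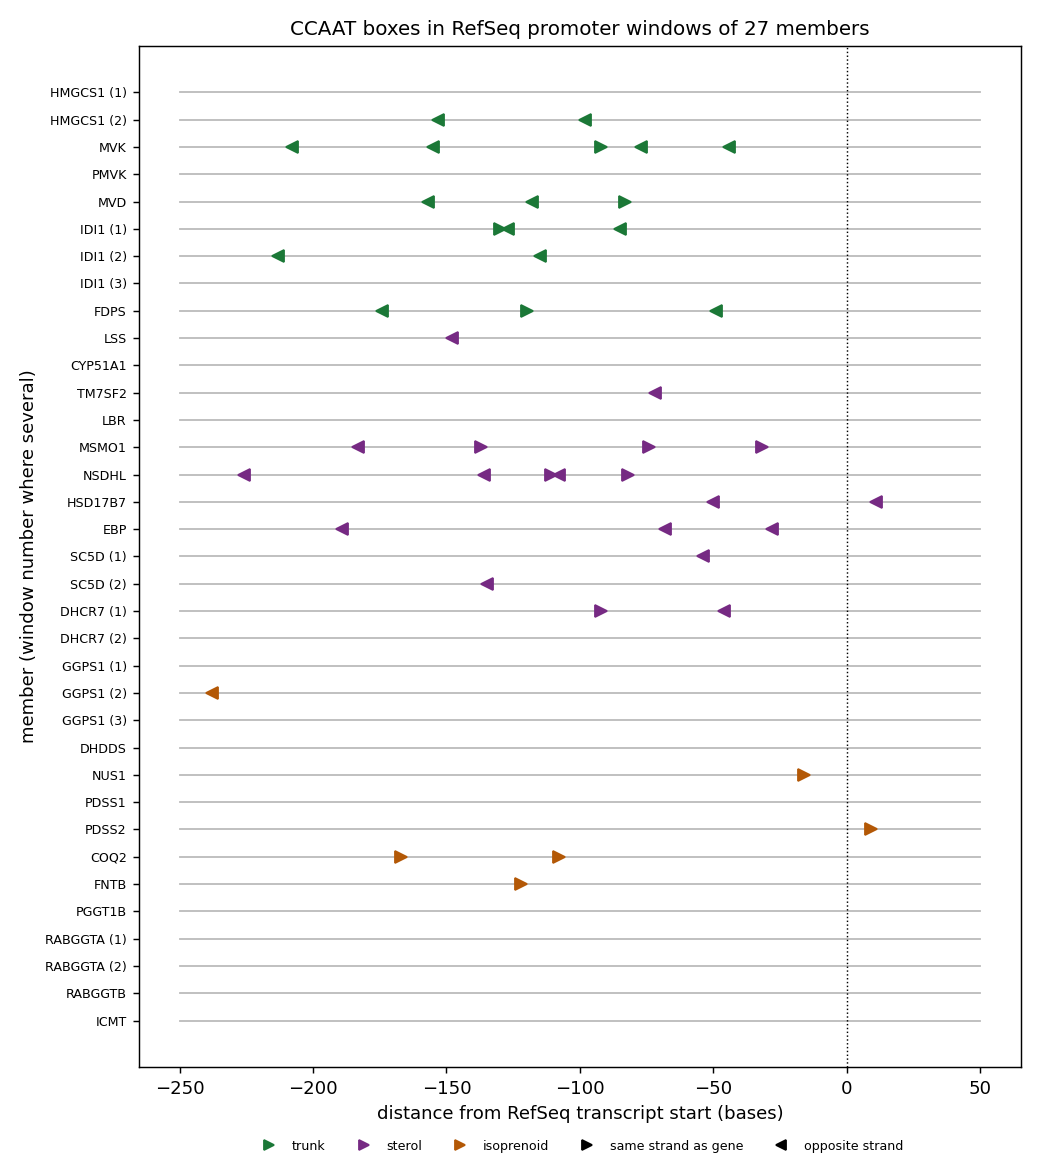
CCAAT boxes (triangles, pointing with the strand) in the RefSeq promoter windows of 27 members, one line per window, against distance from the transcript start in bases; green is trunk, purple sterol and orange isoprenoid. Boxes lie mostly before the start in trunk and sterol windows, and 6 of 11 isoprenoid members have none.

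Mean levels over all 12 libraries ran from 124 FPKM for EBP to 0.826 FPKM for PGGT1B, with medians of 18.8 FPKM in the trunk, 14.2 in the sterol branch and 6.56 in the isoprenoid branch. Values are given for replicates 1, 2 and 3 of each group. The share of all genes whose groups do not overlap was not computed. Statements on overlap therefore describe each member alone and are not a result about the pathway. Of the 31 members, 28 were called in at least 1 of 6 comparisons, and these are given library by library.

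The trunk begins with cytosolic acetoacetyl-CoA thiolase, ACAT2, which lay between 15.2 and 23.4 FPKM in all libraries and was called in no comparison. HMGCS1, the synthase that makes HMG-CoA (ENSG00000112972, chromosome 5, 43289395 to 43313512), had 6.77, 6.499 and 8.85 FPKM in PA+BMS, 2.203, 3.43 and 3.74 in PA+OA, 3.69, 2.82 and 3.19 in PA, and 3.999, 6.39 and 6.83 in control. All PA+BMS values lay above all PA+OA and PA values and overlapped those of control, while PA+OA and PA lay below control. IDI1, the isomerase that interconverts the isoprene units (ENSG00000067064, chromosome 10, 1039152 to 1049170), had 31.2, 31.9 and 31.98 FPKM in PA+BMS, 13.5, 15.8 and 15.3 in PA+OA, 16.2, 18.9 and 14.98 in PA, and 15.1, 17.8 and 16.9 in control. The PA+BMS libraries, with an SD of 0.396 FPKM, lay above the other 9 libraries, whose groups overlapped. MVK, mevalonate kinase (ENSG00000110921, chromosome 12, 109573255 to 109598117), had 10.4, 10.6 and 7.85 FPKM in PA+BMS, 10.97, 6.92 and 6.37 in PA+OA, 9.96, 11.6 and 10.7 in PA, and 6.03, 4.53 and 4.42 in control. Every library with palmitate lay above every control library, and the 3 palmitate groups overlapped. MVK shares its locus with MMAB on the opposite strand, and no source states whether reads were counted by strand.

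For the later trunk enzymes, PA+OA replicate 1 was the highest of all 12 libraries, and PA lay above PA+BMS and control. PMVK, phosphomevalonate kinase, had 43.8, 39.5 and 36.1 FPKM in PA+BMS, 89.5, 56.2 and 39.6 in PA+OA, 77.6, 66.2 and 60.2 in PA, and 51.8, 40.1 and 48.8 in control. PA+OA overlapped every group. MVD, which decarboxylates mevalonate diphosphate, had 14.7, 13.2 and 11.3 FPKM in PA+BMS, 19.6, 12.5 and 11.3 in PA+OA, 17.6, 18.1 and 15.98 in PA, and 11.6, 7.89 and 9.39 in control. Here too PA+OA overlapped every group. FDPS, farnesyl diphosphate synthase at the branch point, had 65.5, 60.7 and 52.7 FPKM in PA+BMS, 115, 71.2 and 68.5 in PA+OA, 106, 97.5 and 87.2 in PA, and 71.05, 56.7 and 65.6 in control. PA+BMS lay below PA+OA and PA and overlapped control, and PA lay above control; RUSC1-AS1 overlaps FDPS on the opposite strand.

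**Figure D2:**
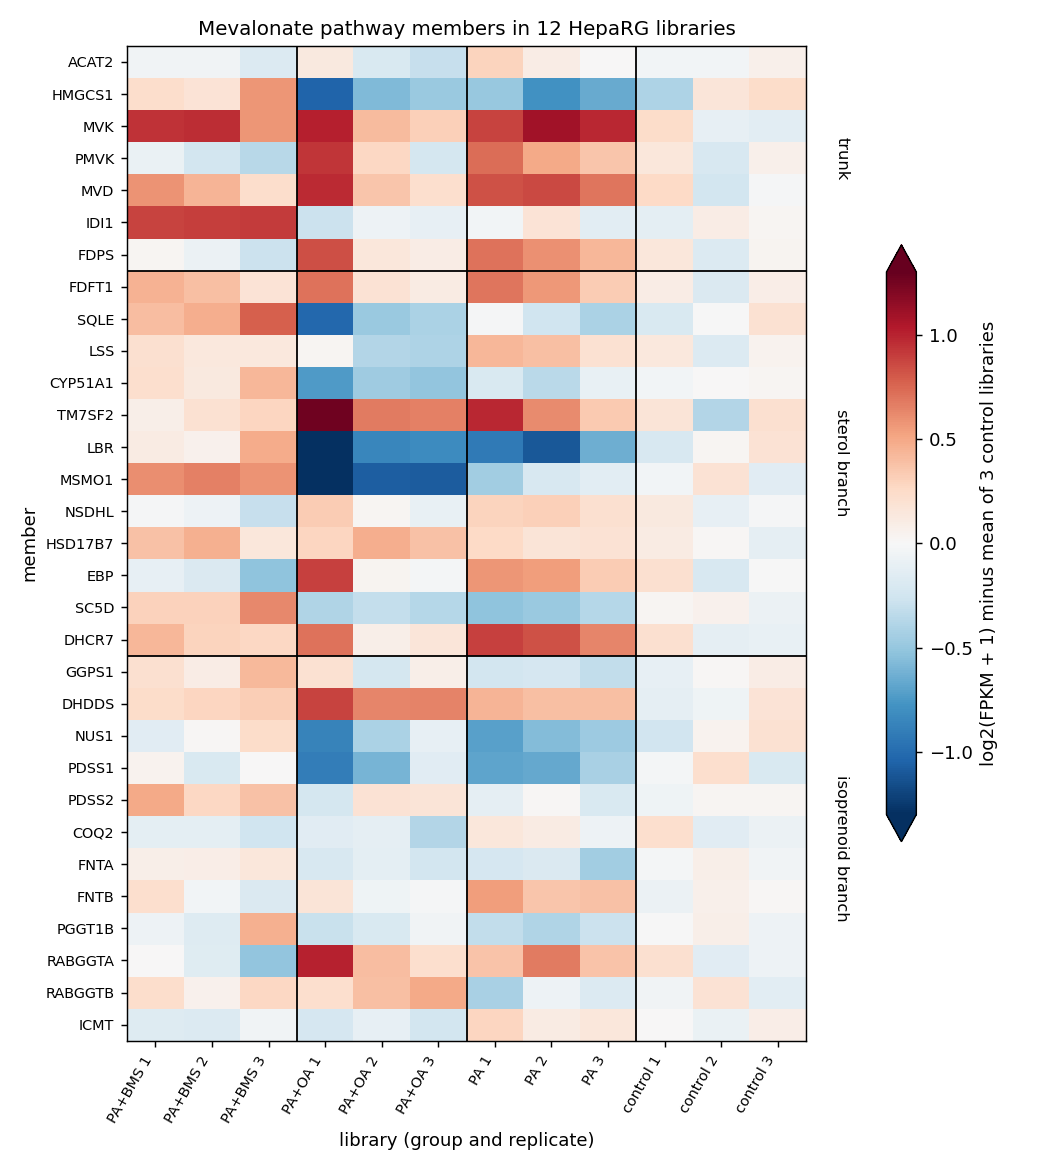
Log2(FPKM + 1) of the 31 members (rows, in pathway order) in each library (columns, PA+BMS, PA+OA, PA and control from left) minus the mean of the 3 control libraries; red is higher and blue lower. IDI1 and MSMO1 are red in all PA+BMS libraries, MSMO1 is deep blue in PA+OA, and PA+OA replicate 1 is the highest of the 12 libraries for PMVK, EBP and RABGGTA.

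In the sterol branch, MSMO1, SQLE, CYP51A1 and SC5D had all PA+BMS libraries above the other 9. Their transcripts have between 37.4% GC (SC5D) and 42.4% GC (SQLE). MSMO1, the C-4 methyl sterol oxidase (ENSG00000052802, chromosome 4, 165327623 to 165343160), had 19.97, 20.8 and 19.7 FPKM in PA+BMS, 4.24, 5.604 and 5.55 in PA+OA, 9.103, 10.99 and 11.5 in PA, and 12.5, 14.7 and 11.5 in control. PA+BMS lay above and PA+OA below every other library, and PA overlapped control. SQLE, squalene epoxidase, which oxidises squalene before ring closure, had 25.7, 27.04 and 33.7 FPKM in PA+BMS, 8.96, 13.5 and 14.2 in PA+OA, 18.99, 15.8 and 14.2 in PA, and 16.6, 19.2 and 22.2 in control. PA+BMS lay above all other libraries, PA+OA lay below control, and PA overlapped control. PA+OA and PA all but met, at 14.2027 FPKM in PA+OA replicate 3 and 14.2035 in PA replicate 3. CYP51A1, lanosterol demethylase (ENSG00000001630, chromosome 7, 92112151 to 92134803), had 3.16, 2.91 and 3.81 FPKM in PA+BMS, 1.14, 1.59 and 1.501 in PA+OA, 2.104, 1.801 and 2.34 in PA, and 2.49, 2.57 and 2.65 in control. No groups of CYP51A1 overlapped, and their order was PA+BMS, control, PA and PA+OA from high to low. SC5D, which introduces a double bond late in the pathway (ENSG00000109929, chromosome 11, 121292453 to 121308694), had 5.08, 5.102 and 6.64 FPKM in PA+BMS, 2.76, 3.004 and 2.82 in PA+OA, 2.44, 2.54 and 2.83 in PA, and 4.02, 4.12 and 3.698 in control. PA+BMS again lay above all others, and PA+OA and PA lay below control and overlapped.

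LBR and TM7SF2 both encode sterol C-14 reductases, and LBR is also an anchor of the nuclear lamina. LBR (ENSG00000143815, chromosome 1, 225401502 to 225428925) had 17.8, 17.2 and 23.4 FPKM in PA+BMS, 5.37, 8.697 and 8.91 in PA+OA, 8.23, 7.14 and 10.2 in PA, and 14.1, 16.8 and 18.8 in control. PA+OA and PA lay below PA+BMS and control, which overlapped. TM7SF2 (ENSG00000149809, chromosome 11, 65111845 to 65116384) had 3.65, 4.04 and 4.35 FPKM in PA+BMS, 9.58, 6.06 and 5.93 in PA+OA, 7.71, 5.75 and 4.57 in PA, and 3.96, 2.39 and 4.103 in control. The 2 reductases were ordered differently, since for TM7SF2 PA+OA and PA lay above PA+BMS and control; VPS51 overlaps it on the same strand, so shared reads there are uncertain. LSS, lanosterol synthase (ENSG00000160285, chromosome 21, 46188141 to 46228824), had 16.8, 15.9 and 15.8 FPKM in PA+BMS, 14.7, 10.8 and 10.6 in PA+OA, 19.6, 19.2 and 16.6 in PA, and 15.9, 12.5 and 14.9 in control. PA+OA lay below PA+BMS and PA and overlapped control, and PA lay above control.

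DHCR7, which carries out a last reduction to cholesterol (ENSG00000172893, chromosome 11, 71428193 to 71452868), had 59.4, 53.5 and 52.97 FPKM in PA+BMS, 71.9, 46.1 and 48.99 in PA+OA, 81.8, 78.1 and 68.3 in PA, and 50.6, 40.3 and 40.9 in control. PA lay above PA+BMS and control, PA+BMS lay above control, and PA+OA overlapped all groups; AP002387.1 overlaps the gene on the opposite strand. FDFT1, squalene synthase and the first step of the branch, had 45.7, 43.8 and 37.6 FPKM in PA+BMS, 54.7, 37.9 and 35.7 in PA+OA, 54.2, 49.6 and 41.8 in PA, and 35.6, 28.8 and 35.3 in control. All 3 palmitate groups lay above control and overlapped one another. EBP, a sterol isomerase and the most abundant member, had 102, 96.1 and 75.9 FPKM in PA+BMS, 204, 113 and 108 in PA+OA, 164, 159.9 and 138 in PA, and 127, 95.1 and 109 in control. PA+BMS lay below PA+OA and PA, and PA above control, with PA+OA replicate 1 the highest library. NSDHL, a dehydrogenase that acts with MSMO1 in removing methyl groups, had 22.6, 21.8 and 18.4 FPKM in PA+BMS, 28.9, 23.2 and 21.2 in PA+OA, 28.1, 28.6 and 26.6 in PA, and 24.9, 21.1 and 22.5 in control. Its PA libraries lay above PA+BMS and control. HSD17B7, the ketoreductase of the same step, had 4.22, 4.53 and 3.45 FPKM in PA+BMS, 3.88, 4.58 and 4.23 in PA+OA, 3.79, 3.51 and 3.59 in PA, and 3.31, 3.05 and 2.71 in control. Control was lowest, below each of the palmitate groups, and PA+OA lay above PA.

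**Figure D3:**
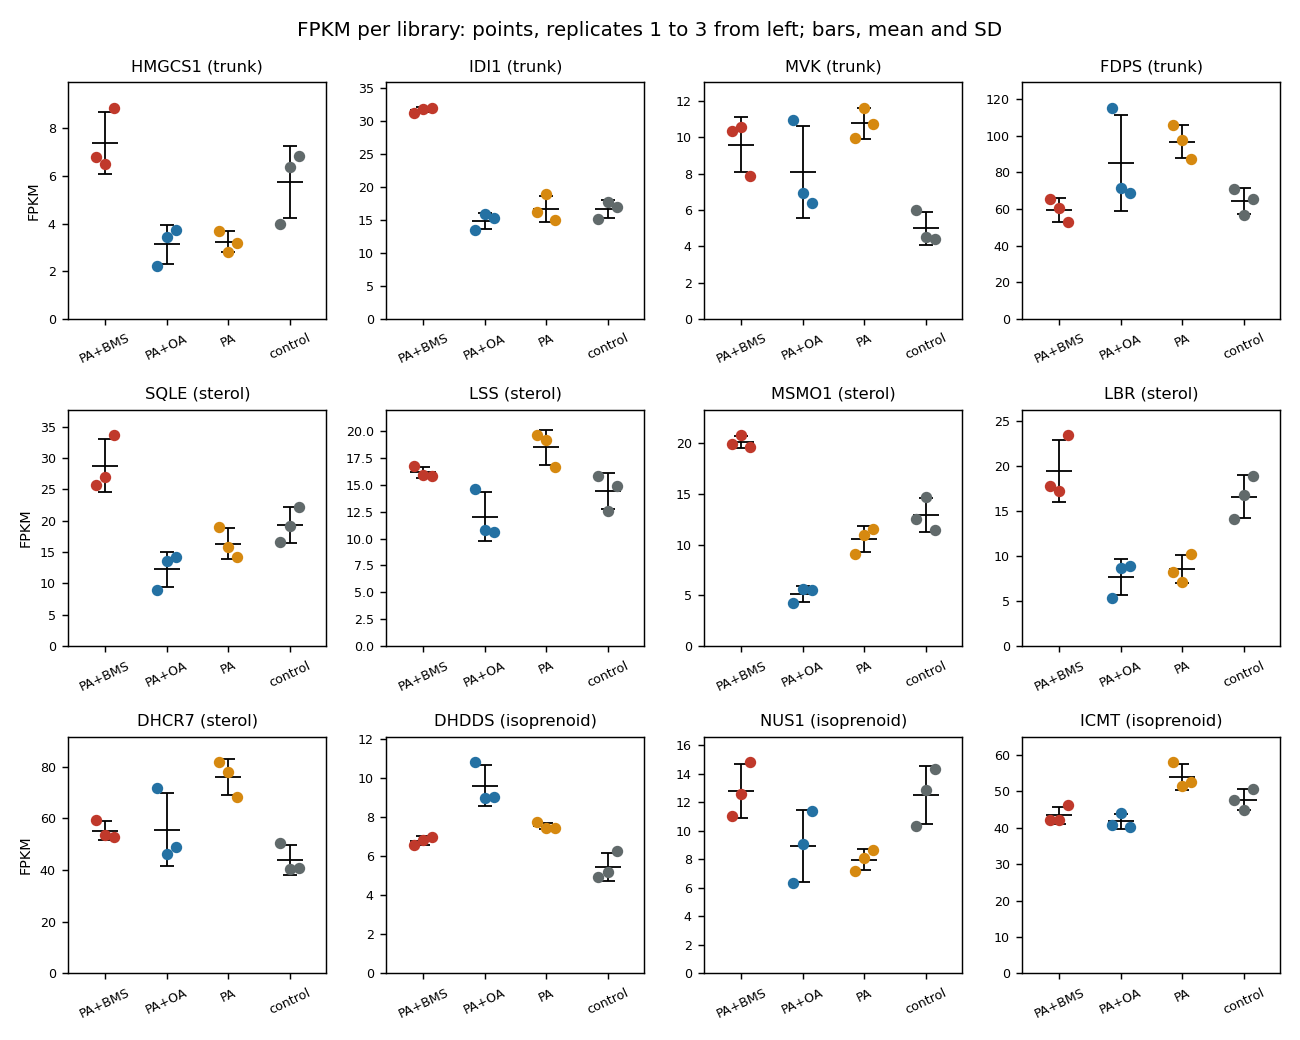
FPKM (vertical axes, from 0) of 12 members in each library, with PA+BMS, PA+OA, PA and control from left; points are replicates 1 to 3 and bars the mean and SD of 3 libraries. IDI1 sits at 31.2 to 32.0 FPKM in PA+BMS and at 13.5 to 18.9 in the other 9 libraries, and MSMO1 at 4.24 to 5.60 in PA+OA.

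In the isoprenoid branch, dolichol synthesis is served by DHDDS and NUS1, the subunits of cis-prenyltransferase. DHDDS, the catalytic subunit (ENSG00000117682, chromosome 1, 26432282 to 26471294), had 6.57, 6.81 and 7.01 FPKM in PA+BMS, 10.8, 8.98 and 9.04 in PA+OA, 7.73, 7.45 and 7.44 in PA, and 4.91, 5.18 and 6.24 in control. No groups overlapped, with PA+OA highest, then PA, PA+BMS and control; AL513365.2 overlaps it on the opposite strand. NUS1, the other subunit, had 11.1, 12.6 and 14.8 FPKM in PA+BMS, 6.33, 9.05 and 11.4 in PA+OA, 7.19, 8.09 and 8.64 in PA, and 10.3, 12.9 and 14.3 in control. Its order differed from that of DHDDS, since PA lay below PA+BMS and control, and PA+OA overlapped all groups. GGPS1, which makes geranylgeranyl diphosphate, had 3.81, 3.46 and 4.59 FPKM in PA+BMS, 3.78, 2.55 and 3.39 in PA+OA, 2.53, 2.57 and 2.32 in PA, and 2.87, 3.19 and 3.43 in control. PA+BMS lay above control and control above PA, and PA+OA overlapped all; ARID4B overlaps it on the opposite strand.

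PDSS1 and PDSS2 together make the polyprenyl tail of ubiquinone. PDSS1 had 6.51, 5.34 and 6.29 FPKM in PA+BMS, 2.902, 3.78 and 5.53 in PA+OA, 3.52, 3.58 and 4.404 in PA, and 6.15, 7.43 and 5.34 in control. PA lay below PA+BMS and control, and ABI1 overlaps the gene on the opposite strand. PDSS2 had 8.59, 7.26 and 7.92 FPKM in PA+BMS, 4.82, 6.81 and 6.66 in PA+OA, 5.304, 5.899 and 4.95 in PA, and 5.600, 5.98 and 5.95 in control. PA+BMS lay above the other groups, which overlapped. COQ2, which joins that tail to the ring of ubiquinone, lay between 6.31 and 10.1 FPKM and was called in no comparison.

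Protein prenylation is carried out by transferases that share or pair subunits. FNTA, the alpha subunit of farnesyltransferase and of its geranylgeranyl counterpart, had 4.59, 4.64 and 4.902 FPKM in PA+BMS, 3.61, 3.88 and 3.52 in PA+OA, 3.58, 3.67 and 2.88 in PA, and 4.22, 4.61 and 4.13 in control. PA+OA and PA lay below PA+BMS and control; the small RNA gene RNU1-124P lies within it on the same strand. FNTB, the farnesyltransferase beta subunit, had 3.45, 2.73 and 2.37 FPKM in PA+BMS, 3.32, 2.69 and 2.79 in PA+OA, 4.61, 3.94 and 3.99 in PA, and 2.63, 3.02 and 2.87 in control. PA lay above the other 3 groups, and MAX overlaps FNTB on the opposite strand. RABGGTA, the alpha subunit of the Rab geranylgeranyl transferase, had 14.2, 12.5 and 9.58 FPKM in PA+BMS, 29.2, 19.01 and 16.6 in PA+OA, 18.6, 23.2 and 18.6 in PA, and 16.4, 12.7 and 13.5 in control. PA+OA and PA lay above control and above PA+BMS. RABGGTB, its beta subunit, had 7.49, 6.56 and 7.72 FPKM in PA+BMS, 7.44, 8.51 and 9.24 in PA+OA, 4.41, 5.95 and 5.398 in PA, and 6.01, 7.27 and 5.59 in control. PA+OA lay above PA and control, and PA+BMS above PA, which overlapped control; ACADM overlaps RABGGTB on the same strand. ICMT, which methylates the prenylated cysteine (ENSG00000116237, chromosome 1, 6221193 to 6235972), had 42.2, 42.1 and 46.1 FPKM in PA+BMS, 40.8, 44.2 and 40.3 in PA+OA, 58.1, 51.4 and 52.7 in PA, and 47.6, 44.8 and 50.6 in control. PA lay above all other groups and PA+OA below control; RNF207 overlaps it on the opposite strand. Of the 31 members 12 overlap a gene that reached 1 FPKM, 7 of them in the isoprenoid branch, and 8 have pseudogenes or a read-through gene named after them, none of which reached 1 FPKM.

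**Figure D4:**
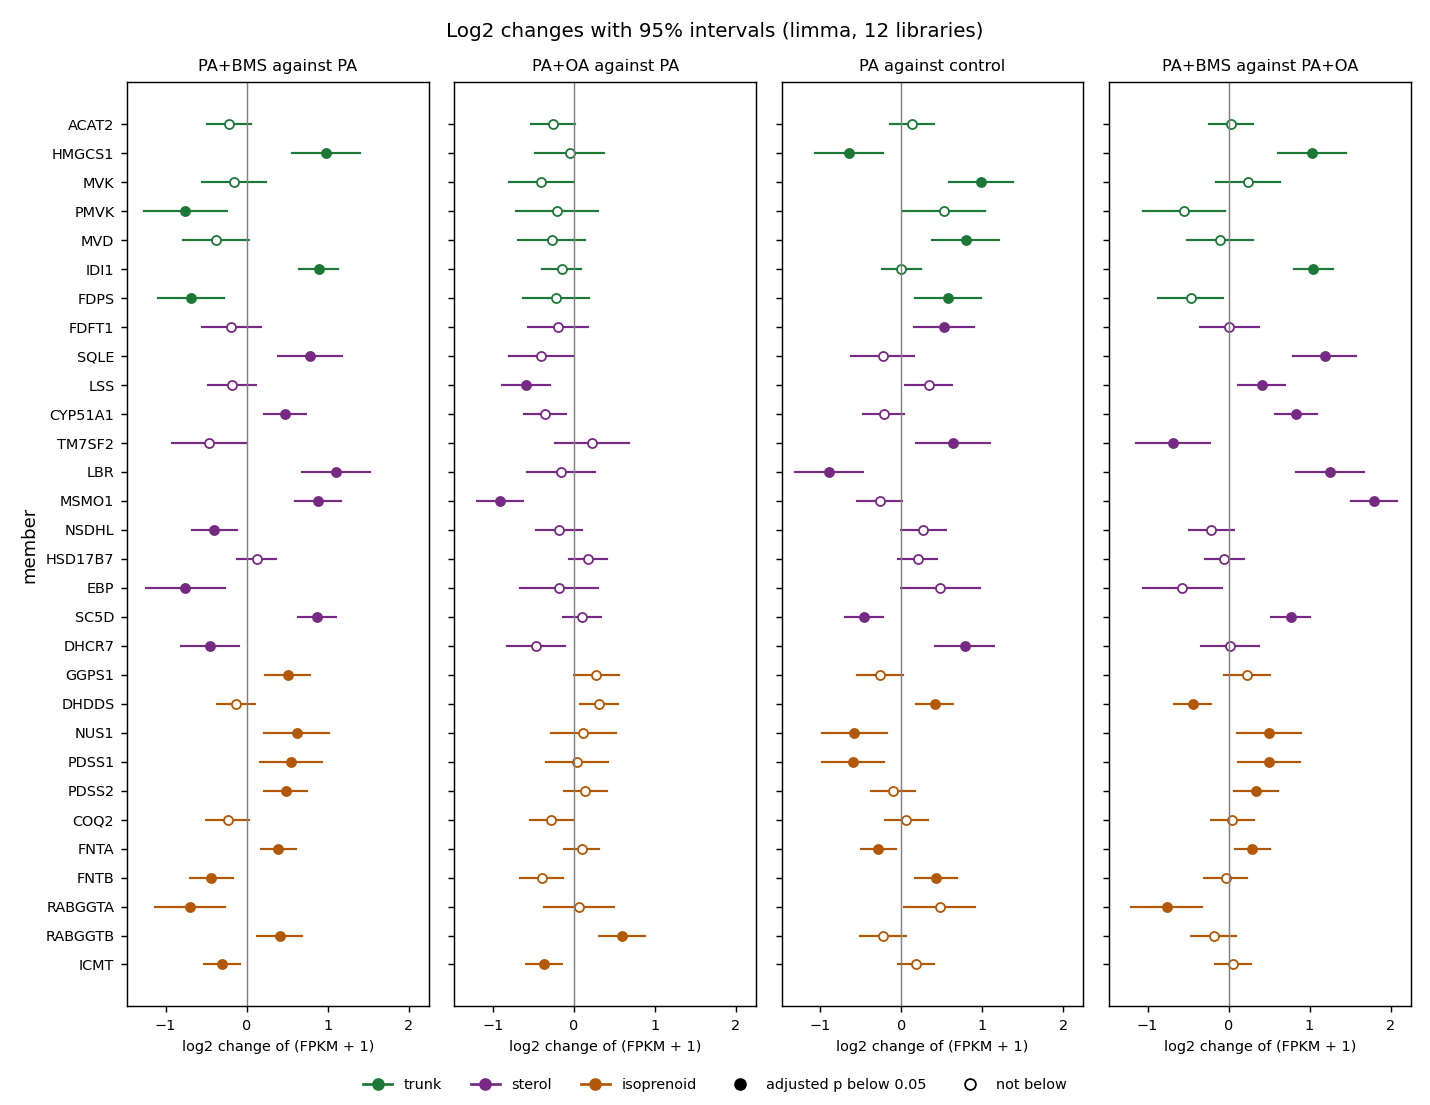
Difference of mean log2(FPKM + 1) with its 95% interval (limma over 12 libraries) for the 30 tested members in 4 comparisons; filled points have an adjusted p below 0.05 over all 11856 genes. PA+BMS against PA holds 21 filled points, PA+BMS against PA+OA 15, PA against control 14 and PA+OA against PA 4. MSMO1 is the lowest point of PA+OA against PA and the highest of PA+BMS against PA+OA.

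With palmitate, genes of the trunk and of both branches changed in both directions, with MVK, MVD and DHCR7 the largest rises and LBR and HMGCS1 the largest falls as deposited; HMGCS1 was not called with the GC and length trend removed (-0.29, adjusted p = 0.157). PA against control had 8 members that rose and 6 that fell of 30 tested, where 27.6% of all tested genes were called, 12.8% that rose and 14.8% that fell. In the trunk 3 of 7 rose and 1 fell, in the sterol branch 3 of 12 rose and 2 fell, and in the isoprenoid branch 2 of 11 rose and 3 fell. The branch medians were 0.53, 0.24 and -0.10, beside 0.028 over all tested genes. MVK rose most (log2 change 0.98, SE 0.18, adjusted p = 0.00529), followed in the trunk by MVD (log2 change 0.79, SE 0.19, adjusted p = 0.0137) and FDPS at 0.58, while HMGCS1 fell (log2 change -0.65, SE 0.19, adjusted p = 0.0305). Of sterol genes, DHCR7 rose (log2 change 0.78, SE 0.16, adjusted p = 0.00865), as did FDFT1 at 0.53 and TM7SF2 at 0.64. LBR fell (log2 change -0.89, SE 0.19, adjusted p = 0.00986) and SC5D fell (log2 change -0.46, SE 0.11, adjusted p = 0.0136). Of isoprenoid genes, DHDDS rose (log2 change 0.41, SE 0.11, adjusted p = 0.0184) and FNTB rose by 0.43. PDSS1, NUS1 and FNTA were at -0.59 (adjusted p = 0.0296), -0.58 (adjusted p = 0.0370) and -0.29 (adjusted p = 0.0497), so the dolichol subunits NUS1 and DHDDS changed in opposite directions, as did the farnesyltransferase subunits FNTA and FNTB, though FNTA took a positive value once the trend was removed. Not called were MSMO1 at -0.27, SQLE at -0.23 and IDI1 at 0.0021, and the 16 uncalled members lay between -0.27 and 0.53.

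All 8 members that rose with palmitate had transcripts of 48.9% GC or more, and all 6 that fell 43.3% or less. With the GC and length trend removed, 5 rose and 1 fell, where 15.4% of all genes were called, 6.51% that rose and 8.92% that fell: MVK at 0.69, MVD at 0.47, DHCR7 at 0.45, HSD17B7 at 0.48, IDI1 at 0.35 and LBR at -0.50. Of these, MVK, MVD, DHCR7 and LBR were called in both; no isoprenoid member was called with the trend removed. FNTA was then at 0.11, the opposite sign. Without the libraries that stand apart, neither of which is in this comparison but both of which enter the shared spread, 14 rose and 7 fell, where 56.7% of genes were called, 29.9% that rose and 26.8% that fell. With library totals set equal, the median of all genes was at -0.19 and 3 rose and 7 fell. In that setting 28.7% of all genes were called, 4.31% that rose and 24.4% that fell. The calls of MVK and DHCR7 held whichever library was left out. The other 12 each failed without at least 1 library, with highest adjusted p of 0.0512 to 0.173. Among them the FNTA call held in only 2 of 12 such fits, and the LBR call in 11. The number called was 4 without PA replicate 1, 2 without PA replicate 2, 3 and 5 without control replicates 2 and 3, and 9 without PA+BMS replicate 2.

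With oleate added to palmitate, MSMO1 and LSS of the sterol branch and ICMT of the isoprenoid branch fell, and RABGGTB rose. PA+OA against PA had 1 member that rose and 3 that fell, where 7.91% of all genes were called, 4.01% that rose and 3.91% that fell. MSMO1 fell (log2 change -0.92, SE 0.13, adjusted p = 0.00142) and LSS fell (log2 change -0.59, SE 0.13, adjusted p = 0.0181), and no other sterol gene and no trunk gene was called. In the isoprenoid branch RABGGTB rose (log2 change 0.59, SE 0.13, adjusted p = 0.0148) and ICMT fell (log2 change -0.36, SE 0.10, adjusted p = 0.0495). Branch medians were -0.22 in the trunk, -0.19 in the sterol branch and 0.097 in the isoprenoid branch, beside -0.0024 over all genes. CYP51A1 at -0.36 (adjusted p = 0.0930), DHCR7 at -0.47 (adjusted p = 0.112), FNTB at -0.40 (adjusted p = 0.0663) and DHDDS at 0.31 (adjusted p = 0.102) did not pass the test, and SC5D, LBR and HMGCS1 lay at 0.10, -0.15 and -0.053. All 7 tested trunk genes had a negative value, from -0.40 to -0.053.

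GC content and length accounted for 7.73% of the variance of all changes in this comparison. With their trend removed, 2 members rose and 7 fell, where 13.9% of all genes were called, 7.43% that rose and 6.45% that fell, and all 4 calls were kept. The additional falls were CYP51A1 at -0.51 (adjusted p = 0.00248), DHCR7 at -0.41 (adjusted p = 0.0169), SQLE at -0.53 (adjusted p = 0.0182) and FNTB at -0.38 (adjusted p = 0.0262), and DHDDS rose by 0.35 (adjusted p = 0.0300). In the sterol branch this made 5 falls of 12, with MSMO1 at -1.08 and LSS at -0.46. Without the libraries that stand apart 1 rose and 13 fell, where 25.4% of all genes were called, 11.2% that rose and 14.2% that fell, with 5 falls of 7 in the trunk, 6 of 12 in the sterol branch and 2 of 11 in the isoprenoid branch. Without PA+OA replicate 1 alone 10 were called; without PA+OA replicate 2, PA+OA replicate 3 or PA replicate 1 only MSMO1 was called among members, and 2 were called without PA replicate 2. Library totals set equal gave 0 that rose and 3 that fell, MSMO1, LSS and DHCR7. In that setting 6.17% of all genes were called, 3.06% that rose and 3.11% that fell. MSMO1 was called under every alternative that tested it, and LSS, RABGGTB and ICMT each failed without some library (highest adjusted p 0.0800 to 0.199). The ICMT call held in only 2 of 12 fits with 1 library left out, and in 9 of 24 alternatives in all. The LSS call held in 8 of these 12 fits and in 19 of 24 alternatives.

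With BMS-309403 on top of palmitate, 21 of 30 members were called. IDI1 and HMGCS1 of the trunk and SC5D, MSMO1 and LBR of the sterol branch rose, also under every alternative that tested them. PMVK, FDPS and EBP fell as deposited, but were not called with the trend removed, at -0.17, -0.37 and -0.34, or with quantile normalization, at -0.36, -0.24 and -0.25; with library totals set equal FDPS fell (-0.32), and PMVK and EBP lay at -0.38 and -0.38, not called. PA+BMS against PA had 13 members that rose and 8 that fell, where 54.5% of all genes were called, 25.2% that rose and 29.4% that fell. In the trunk 2 of 7 rose and 2 fell, in the sterol branch 5 of 12 rose and 3 fell, and in the isoprenoid branch 6 of 11 rose and 3 fell. Their medians were -0.22, -0.028 and 0.39, beside -0.044 over all genes. IDI1 rose (log2 change 0.89, SE 0.11, adjusted p = 0.000922) and HMGCS1 rose (log2 change 0.98, SE 0.19, adjusted p = 0.00470), while FDPS was at -0.69 (SE 0.19, adjusted p = 0.0119) and PMVK at -0.76 (SE 0.23, adjusted p = 0.0191), both of which fell. In the sterol branch SC5D (log2 change 0.87, SE 0.11, adjusted p = 0.000958), MSMO1 (log2 change 0.88, SE 0.13, adjusted p = 0.00195) and LBR (log2 change 1.10, SE 0.19, adjusted p = 0.00358) rose, as did SQLE at 0.78 and CYP51A1 at 0.48. EBP at -0.75, NSDHL at -0.40 and DHCR7 at -0.45 fell. In the isoprenoid branch GGPS1 at 0.51 (adjusted p = 0.00957), FNTA at 0.39 (adjusted p = 0.00982), PDSS2 at 0.48 (adjusted p = 0.00993), NUS1 at 0.62 (adjusted p = 0.0170), RABGGTB at 0.41 (adjusted p = 0.0212) and PDSS1 at 0.54 (adjusted p = 0.0224) rose. FNTB at -0.43 (adjusted p = 0.0132), RABGGTA at -0.70 (adjusted p = 0.0145) and ICMT at -0.31 (adjusted p = 0.0257) fell. The paired subunits of both prenyl transferases thus changed in opposite directions as deposited, but FNTA and RABGGTB took negative values once the trend was removed. The 9 uncalled members, among them MVK at -0.16, FDFT1 at -0.19 and DHDDS at -0.13, lay between -0.46 and 0.12. Bile duct or progenitor markers, nearly all KRT7, summed to at most 185 FPKM in these PA+BMS libraries, against at least 571 in PA, and their part in these changes was not tested.

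These directions divided by base composition without exception. All 13 members that rose had transcripts of 44.2% GC or less and all 8 that fell 50.5% or more. As deposited, the direction of a called member thus cannot be told apart from its GC content. With the trend removed, 5 rose and 1 fell, where 20.5% of all genes were called, 7.91% that rose and 12.6% that fell, and all 6 were among the 21: LBR at 0.58 (adjusted p = 0.0121), IDI1 at 0.44 (adjusted p = 0.0136), MSMO1 at 0.49 (adjusted p = 0.0172), HMGCS1 at 0.51 (adjusted p = 0.0252), SC5D at 0.33 (adjusted p = 0.0311) and ICMT at -0.29 (adjusted p = 0.0326). In the isoprenoid branch 0 then rose, and FNTA and RABGGTB turned to -0.14 and -0.15. Without the libraries that stand apart 13 rose and 8 fell, where 55.2% of genes were called, 25% that rose and 30.1% that fell. With library totals set equal, the median of all genes was at 0.25 and 14 rose and 1 fell. In that setting 49.1% of all genes were called, 39% that rose and 10.1% that fell. With quantile normalization 13 rose and 3 fell, a setting for which no share of all genes was computed. ICMT was at 0.066 and 0.083 with library totals set equal and quantile normalization. The number called was 13 without PA+BMS replicate 3 and 13 without PA replicate 1, and 12 of the 21 calls held whichever library was left out. The other 9 were DHCR7, EBP, ICMT, NSDHL, NUS1, PDSS1, PMVK, RABGGTA and RABGGTB, with highest adjusted p of 0.0609 to 0.106. HMGCS1, IDI1, LBR, MSMO1 and SC5D were called under every alternative that tested them.

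**Figure D5:**
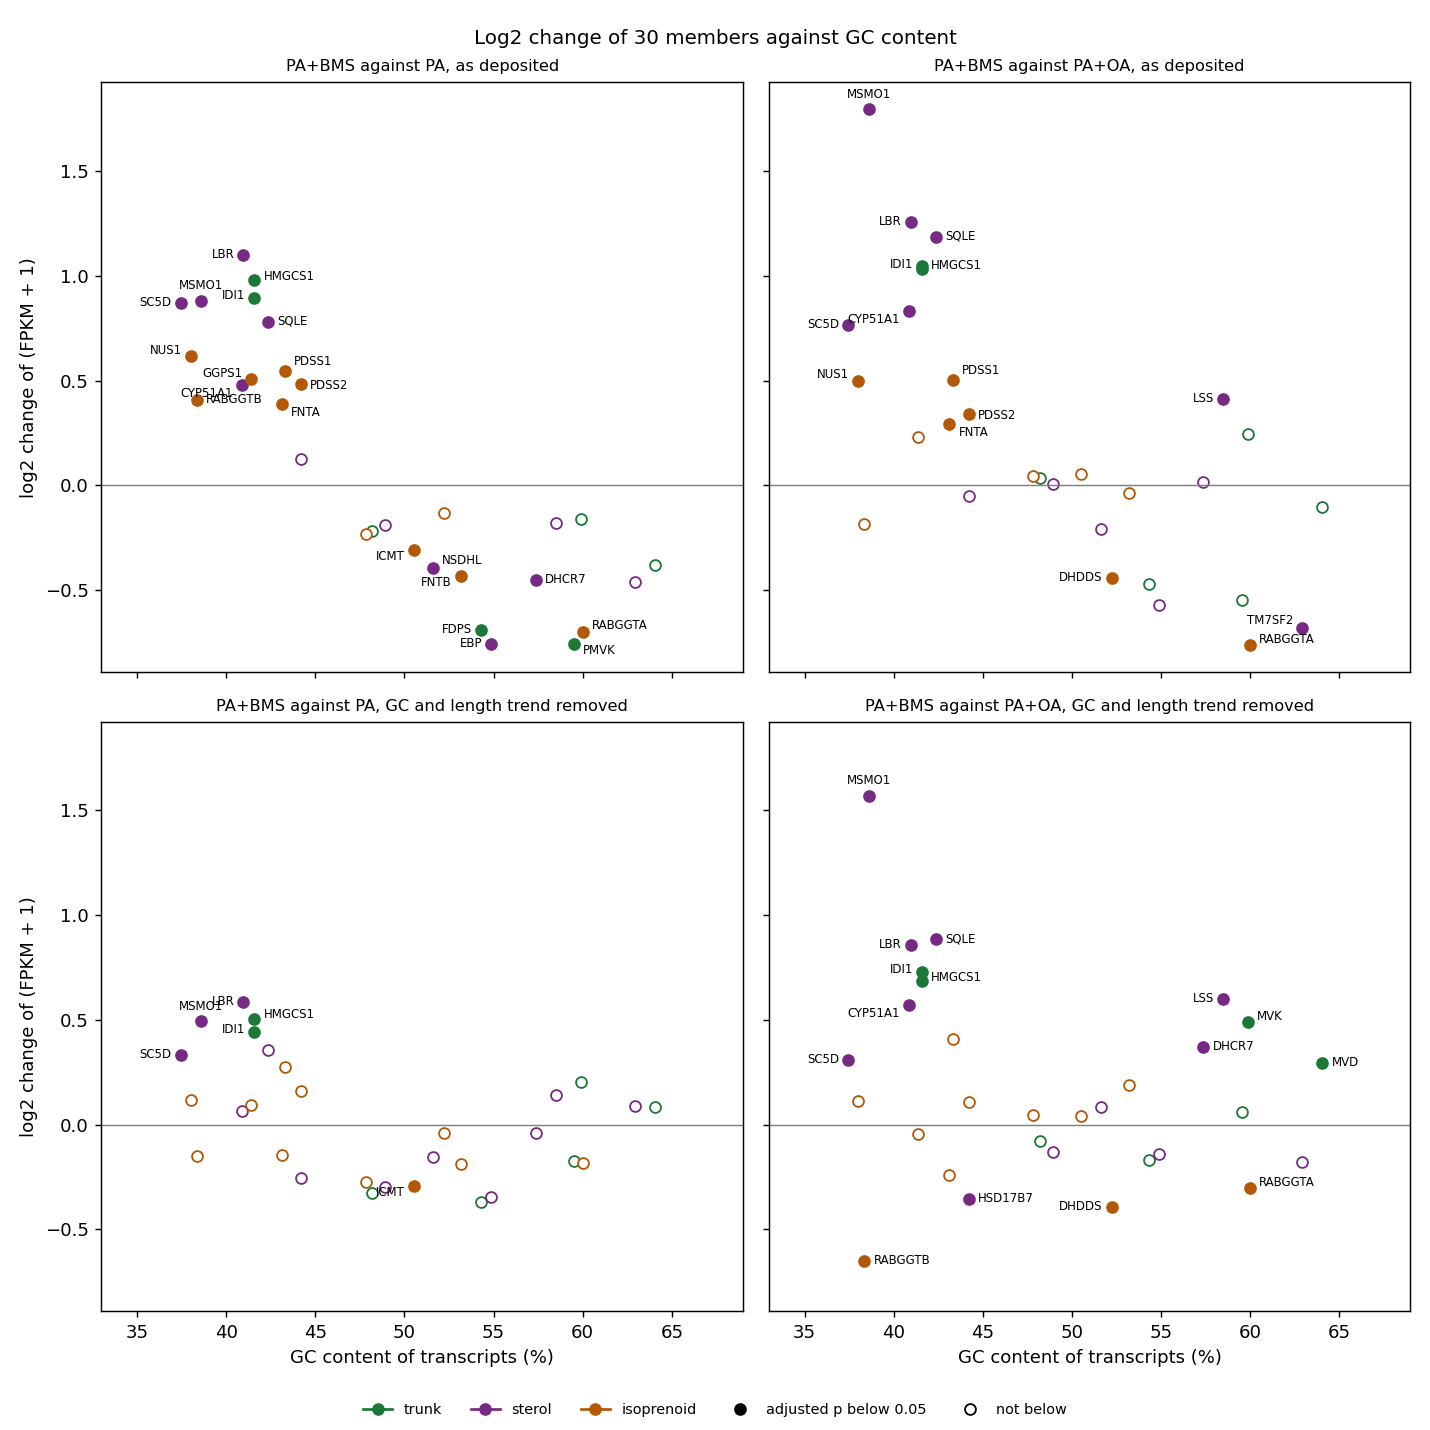
Log2 change of the 30 tested members (vertical axes) against the GC content of their transcripts (horizontal axes, percent) for PA+BMS against PA and PA+BMS against PA+OA, as deposited and after removal of the trend; filled, named points are called. As deposited, the 13 rises against PA lie at 44.2% GC or less and the 8 falls at 50.5% or more; with the trend removed against PA+OA the 11 rises run from 37.4% to 64.1%.

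Set against PA+OA, PA+BMS had higher levels of IDI1 and HMGCS1 in the trunk and of MSMO1, LBR, SQLE, CYP51A1, SC5D and LSS in the sterol branch. These differences cannot be assigned to BMS-309403 or to oleate alone, and BMS-309403 was given for 24 h and oleate for 4 h. LSS fell in PA+OA against PA (-0.59) and was not called in PA+BMS against PA. MSMO1 fell in PA+OA against PA (-0.92) and rose in PA+BMS against PA (0.88). PA+BMS against PA+OA had 12 members that rose and 3 that fell, where 49.6% of all genes were called, 23.1% that rose and 26.4% that fell. MSMO1 rose (log2 change 1.80, SE 0.13, adjusted p = 1.18e-05), the largest difference of any member in any comparison. SC5D, CYP51A1, SQLE and LBR rose by 0.77 (SE 0.11, adjusted p = 0.000721), 0.83 (SE 0.12, adjusted p = 0.000722), 1.19 (SE 0.18, adjusted p = 0.00107) and 1.26 (SE 0.19, adjusted p = 0.00116), and LSS by 0.41 (adjusted p = 0.0257), which made 6 rises of 12 sterol genes, and TM7SF2 fell (log2 change -0.68, SE 0.21, adjusted p = 0.0209). In the trunk IDI1 rose (log2 change 1.04, SE 0.11, adjusted p = 0.000123) and HMGCS1 rose (log2 change 1.03, SE 0.19, adjusted p = 0.00286), with no fall among 7. In the isoprenoid branch FNTA, PDSS1, PDSS2 and NUS1 rose, at 0.29, 0.50, 0.34 and 0.50, and DHDDS (log2 change -0.44, SE 0.11, adjusted p = 0.00836) and RABGGTA (log2 change -0.76, SE 0.20, adjusted p = 0.0114) fell. Medians were 0.035 in the trunk, 0.21 in the sterol branch and 0.056 in the isoprenoid branch, beside -0.024 over all genes. The 15 uncalled members lay between -0.57 and 0.25.

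With the trend removed this comparison had 11 rises and 4 falls, where 32.3% of all genes were called, 13.4% that rose and 18.9% that fell. The rises were 4 of 7 trunk genes and 7 of 12 sterol genes, and in the isoprenoid branch 0 of 11 rose and 3 fell. Trunk values were 0.73 for IDI1, 0.68 for HMGCS1, 0.49 for MVK and 0.30 for MVD. Sterol values were 1.57 for MSMO1, 0.60 for LSS, 0.86 for LBR, 0.89 for SQLE, 0.57 for CYP51A1, 0.37 for DHCR7 and 0.31 for SC5D, while HSD17B7, at -0.36, fell. RABGGTB at -0.65 (adjusted p = 0.00321), DHDDS at -0.39 (adjusted p = 0.0110) and RABGGTA at -0.30 (adjusted p = 0.0388) fell, and FNTA was at -0.24, the opposite sign. Branch medians were 0.30, 0.34 and 0.043, beside -0.044 over all genes; the difference between branches itself was not tested. Of the 15 calls as deposited 10 remained. Without the libraries that stand apart 9 rose and 1 fell, where 21.7% of genes were called, 9.01% that rose and 12.6% that fell: 3 trunk and 6 sterol genes rose, and DHDDS fell. With library totals set equal, the median of all genes was at 0.24 and 19 rose and 1 fell. In that setting 51.3% of all genes were called, 38.8% that rose and 12.4% that fell. The number called was 9 without PA+BMS replicate 3. The calls of CYP51A1, DHDDS, HMGCS1, IDI1, LBR, MSMO1, SC5D and SQLE held whichever library was left out, and FNTA, LSS, NUS1, PDSS1, PDSS2, RABGGTA and TM7SF2 failed without some library (highest adjusted p 0.0506 to 0.157).

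Against untreated cells, more sterol genes fell than rose in PA+OA. PA+OA against control had 6 members that rose and 7 that fell, where 36.3% of all genes were called, 17.5% that rose and 18.8% that fell. Of 12 sterol genes 5 fell: MSMO1 (log2 change -1.18, SE 0.13, adjusted p = 6.12e-05), LBR (log2 change -1.04, SE 0.19, adjusted p = 0.00195), CYP51A1 (log2 change -0.57, SE 0.12, adjusted p = 0.00363), SQLE at -0.64 and SC5D at -0.36. TM7SF2 rose (log2 change 0.86, SE 0.21, adjusted p = 0.00859) and HSD17B7 rose by 0.38. In the trunk MVK at 0.58 (adjusted p = 0.0278) and MVD at 0.52 (adjusted p = 0.0487) rose and HMGCS1 fell (log2 change -0.70, SE 0.19, adjusted p = 0.0159), and in the isoprenoid branch DHDDS rose (log2 change 0.72, SE 0.11, adjusted p = 0.000443), RABGGTB rose by 0.37 and PDSS1 was at -0.55 (adjusted p = 0.0291), a fall. The 17 uncalled members lay between -0.46 and 0.54. With the trend removed 5 rose and 7 fell, where 37.3% of all genes were called, 18.6% that rose and 18.6% that fell, and 11 of the 13 calls remained; MVD and SC5D were lost and LSS, at -0.39, was gained. Without the libraries that stand apart 5 rose and 7 fell, where 39.5% were called, 18.3% that rose and 21.2% that fell. With library totals set equal, with a median of all genes of -0.17, 2 rose and 13 fell. In that setting 37.7% of all genes were called, 10.2% that rose and 27.5% that fell. CYP51A1, DHDDS, LBR, MSMO1 and TM7SF2 were called under every alternative that tested them, and the other 8 failed without some library (highest adjusted p 0.0717 to 0.181). The MVD call held in only 3 of 12 fits with 1 library left out, and in 10 of 24 alternatives in all. The calls of MVK and HMGCS1 each held in 9 of these 12 fits. The number called was 8 without PA+OA replicate 1 and 6 and 7 without control replicates 2 and 3.

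PA+BMS against control had 4 members that rose and 0 that fell, where 11% of all genes were called, 4.77% that rose and 6.25% that fell. IDI1 rose (log2 change 0.89, SE 0.11, adjusted p = 0.000445), as did MVK (log2 change 0.82, SE 0.18, adjusted p = 0.0139), MSMO1 (log2 change 0.61, SE 0.13, adjusted p = 0.0111) and SC5D (log2 change 0.41, SE 0.11, adjusted p = 0.0318); no isoprenoid gene of 11 was called. SQLE at 0.55 (adjusted p = 0.0723), PDSS2 at 0.38 (adjusted p = 0.0702) and HSD17B7 at 0.33 (adjusted p = 0.0773) did not pass the test, and HMGCS1, LBR and CYP51A1 lay at 0.33, 0.22 and 0.26. With the trend removed 7 rose and 0 fell, where 19.6% of all genes were called, 8.46% that rose and 11.1% that fell, namely IDI1 at 0.79, MVK at 0.90, MVD at 0.55, MSMO1 at 0.56, DHCR7 at 0.41, SQLE at 0.45 and PDSS2 at 0.30, and SC5D was no longer called. Without the libraries that stand apart 9 rose and 0 fell, where 18.2% were called, 7.63% that rose and 10.6% that fell. The number was 9 without PA+OA replicate 1 alone, 2 without PA+BMS replicate 2, 2 without control replicate 2 and 1 without control replicate 3. IDI1 was called under every alternative that tested it, and MVK, MSMO1 and SC5D failed without some library (highest adjusted p 0.0559 to 0.117). The comparisons share their PA, PA+OA, PA+BMS or control libraries, so their values are not independent of one another.

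Genes next to the pathway were read in 5 lists. Of 10 genes of SREBP control, the system that senses sterol, 5 rose and 1 fell in PA+BMS against PA+OA. With palmitate alone 5 rose and 2 fell, with oleate added 1 rose and 3 fell, and with BMS-309403 added 5 rose and 4 fell. INSIG1, which retains the SREBP escort in the endoplasmic reticulum, was called with each of these: 0.61 for BMS-309403 added, -1.70 for oleate added and 0.44 for palmitate alone. STARD4, a sterol carrier, rose in PA+BMS against PA (log2 change 0.83, SE 0.14, adjusted p = 0.00342). Of 10 genes for the ring and assembly of ubiquinone, 6 rose and 0 fell in PA+OA against control, and 1 rose and 5 fell in PA+BMS against PA, where COQ10A and COQ4 were at -0.54 and -0.59; in PA+BMS against PA+OA 0 rose and 6 fell. Of 8 genes that use dolichol in glycosylation, 0 rose and 5 fell in PA+BMS against PA, led by DPAGT1 at -0.59 and DPM3 at -1.30, against 1 that rose and 0 that fell in PA against control. Of 5 genes that escort or process prenylated proteins, 1 rose and 2 fell in PA against control, where CHML, a Rab escort protein, was at -1.66, and 3 rose and 1 fell in PA+BMS against PA, where ZMPSTE24, a protease of prenylated proteins, was at 0.78. Of the remaining 5 genes, thiolases, a synthase and sterol genes, 2 were tested, and ACAT1, the mitochondrial thiolase, fell in PA against control (-0.49) and rose in PA+BMS against PA (0.50). The counts for these lists were not computed with the trend removed, and stand beside the shares of all genes given above for each comparison.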

How the data were processed

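Per the labels' protocols, poly(A) RNA of HepaRG cells was sequenced as pairs of 150 bp. HISAT2 2.0.5, featureCounts 1.5.0-p3 and CASAVA are listed by the submitters' processing notes, with no role. Build, annotation and strandedness: not given in the sources used here. All 58735 gene IDs, symbols and coordinates equal GENCODE 29 on GRCh38, from which GC content and overlaps were taken. The values are FPKM as deposited by the authors, with no counts. Multiplied by gene length and divided by 1 step per library, found from the values, they gave whole reads for 100% of values in every library (tolerance 0.001 reads), 16059128 to 19971190 per library. The library size that this step implies was 0.827 to 1.14 times these totals.

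Groups come from the sample titles and doses from the design text. Log2(FPKM + 1) of 11856 genes (at least 1 FPKM in at least 3 libraries) was fitted with limma 3.58.1 in R 4.3.3 on all 12 libraries, with 8 residual degrees of freedom and no covariate, for 6 comparisons. P-values were Benjamini-Hochberg adjusted over all tested genes, called below 0.05. Alternatives were another pseudocount (0.1), no filter or one at 5 FPKM, other scalings, quantile normalization, fitting only the groups compared, library weights, a replicate block, removal of a spline trend (5 degrees of freedom) against GC content and length in each library, and leaving out libraries. Scripts were tested on simulated data. CCAAT boxes were searched with Python 3.11.15 in RefSeq promoters (GRCh38.p14). The members and lists were chosen with earlier results of these data known. Every member called in at least 1 comparison is given library by library, and neighbouring genes by smallest adjusted p, apart from an item that is not reported here.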

Additional observations from a re-analysis of the deposited data

How the results depend on the processing

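Of 71 member calls over the 6 comparisons, 1368 of 1694 values under the alternatives kept direction and call, 316 kept direction without passing the test and 10 turned. Of 72 counts of called members under alternatives other than leaving out 1 library, 52 lay within 1.5 times the reported count. Shares of all genes called were computed as deposited, with the trend removed, with library totals set equal and without both libraries that stand apart. They were not computed for the other alternatives, leaving out 1 library included. Whether those counts moved with the calls of all genes is therefore not known. Without a filter on low values the number was 13 in PA+BMS against PA, 7 in PA+OA against control and 6 in PA against control. With library totals set equal and with quantile normalization it was 8 in PA+BMS against control each time. In that comparison 10.4% of all genes were called with library totals set equal. Fitting only the groups compared gave 1 in PA+OA against PA, 8 in PA+OA against control and 8 in PA+BMS against PA+OA. With the GC and length trend removed it was 6 in PA+BMS against PA, 7 in PA+BMS against control and 6 in PA against control, and 9 members were called in PA+OA against PA. Precision weights per library gave 12 in PA+BMS against control and 23 in PA against control, and 18 members in PA+OA against PA. Without both libraries that stand apart it was 9 in PA+BMS against control, and 14 members were called in PA+OA against PA. Leaving out 1 library at a time gave 13 to 23 called in PA+BMS against PA, 9 to 16 in PA+BMS against PA+OA, 1 to 9 in PA+BMS against control, 1 to 10 in PA+OA against PA, 6 to 15 in PA+OA against control and 2 to 19 in PA against control; where this left a group with 2 libraries the spread was pooled over groups.

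The sign turned for ICMT in PA+BMS against PA, to 0.066 with library totals set equal and 0.083 with quantile normalization. With the GC and length trend removed, with or without the replicate block, FNTA was at -0.14 in PA+BMS against PA, -0.24 in PA+BMS against PA+OA and 0.11 in PA against control, and RABGGTB at -0.15 in PA+BMS against PA. The causes were not tested, beyond the trend that this alternative removes by construction. A planned voom fit on reads recovered from FPKM is not reported, because count models were kept to deposited counts.

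Whether replicate numbers pair the libraries was left undecided. Of 18 same-numbered pairs 9 deviated together with a correlation over 0.1, and the pairs ranged from -0.28 to 0.56. Of 12 libraries 9 correlated best with their own number, which is a hint from the data only. With a replicate block 23 members were called in PA+BMS against PA, 18 in PA+BMS against PA+OA, 4 in PA+BMS against control, 5 in PA+OA against PA, 15 in PA+OA against control and 18 in PA against control, and all 71 calls held. With the block and the trend removed, the number was 9 in PA+BMS against PA and 7 in PA against control, and 11 members were called in PA+OA against PA. No share of all genes was computed with the block, so a general rise in calls cannot be told apart from these counts. Depth limits low members most: CYP51A1 had as few as 62 reads, and PGGT1B was not tested.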
